A study of Mus musculus with 6 samples.

Results

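The Hox genes of mouse embryonic stem cells were examined in 3 control libraries and 3 libraries labelled Rif1-KO, here named KO-labelled. Members were all symbols made of Hox, a cluster letter from a to d and a number, which gave 39 of the 33924 symbols in the table: 11 in the Hoxa cluster (chromosome 6), 10 in Hoxb (chromosome 11), 9 in Hoxc (chromosome 15) and 9 in Hoxd (chromosome 2). The cells are E14, an embryonic stem cell line. Per the labels, every library came from cells in 2i, a medium whose kinase inhibitors keep the cells in naive pluripotency, on plates with 0.1% gelatin, and all carry the label Day 0. The treatment text, the same for all 6, names 4-OHT, a tamoxifen metabolite, at 0.1 μM for 2 days followed by 1 day without it. The column headers carry 2i for control and TAM for KO-labelled libraries, so whether control cells also received 4-OHT is unresolved, and a drug difference and the Rif1 label cannot be told apart. The means of disruption, the deleted part of Rif1, the number of clones and the strain were not stated in these sources.

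Total counts ran from 8383632 to 10980777 per library. Rif1, the targeted gene, stood at 677 ± 21.9 CPM in control and 623 ± 35.5 CPM in the KO-labelled libraries (SD, n = 3; edgeR's quasi-likelihood test, adjusted p = 0.0509), and a count over the whole gene does not show whether exons were lost. CPM is the count per 1000000 reads of the library size after TMM scaling, edgeR's correction for differences in composition. Separate cultures are not mentioned for the replicates. The p-values therefore measure the spread between these samples only, and that spread may be technical. Of 7 markers of pluripotent stem cells all were tested, with a summed level of 4831 to 5027 CPM in control and 5079 to 5212 CPM in the KO-labelled libraries.

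Hox genes encode homeodomain transcription factors that give cells their position along the body axis. Each cluster lists its genes in the order in which they act from head to tail, and genes with the same number in different clusters, a paralogue group, descend from a common ancestor. Low numbers act in the hindbrain and neck, middle numbers in the trunk, and high numbers in the tail, limbs, genitalia and skin appendages. In embryonic stem cells the clusters are known to be held near silence by Polycomb complexes, which gather at stretches rich in CG, and to open in sequence as cells differentiate.

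The stretches before the start of 4 Hoxd genes that were read more in the KO-labelled libraries are shown from the 13 end to the 1 end of the cluster, with that of Hoxb1, a gene without a single count, for comparison. They are the 250 bases before the start on the forward strand of GRCm38.p6, credited to RefSeq, a later build than that of the counts. Capitals mark each CG dinucleotide.
Hoxd13: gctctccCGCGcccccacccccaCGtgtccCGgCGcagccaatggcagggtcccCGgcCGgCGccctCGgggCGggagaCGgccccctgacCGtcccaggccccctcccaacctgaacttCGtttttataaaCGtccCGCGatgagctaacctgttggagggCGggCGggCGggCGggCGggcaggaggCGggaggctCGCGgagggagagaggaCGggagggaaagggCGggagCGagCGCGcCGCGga
Hoxd9: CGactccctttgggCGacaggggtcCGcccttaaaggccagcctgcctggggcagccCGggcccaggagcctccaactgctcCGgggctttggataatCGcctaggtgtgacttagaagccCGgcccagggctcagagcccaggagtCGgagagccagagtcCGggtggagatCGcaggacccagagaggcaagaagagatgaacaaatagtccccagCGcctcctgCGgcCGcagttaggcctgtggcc
Hoxd8: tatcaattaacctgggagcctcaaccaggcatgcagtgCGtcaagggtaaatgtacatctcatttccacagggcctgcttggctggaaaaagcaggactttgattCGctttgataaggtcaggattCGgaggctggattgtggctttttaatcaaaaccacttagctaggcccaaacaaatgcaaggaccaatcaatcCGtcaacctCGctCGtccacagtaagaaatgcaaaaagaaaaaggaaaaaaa
Hoxd1: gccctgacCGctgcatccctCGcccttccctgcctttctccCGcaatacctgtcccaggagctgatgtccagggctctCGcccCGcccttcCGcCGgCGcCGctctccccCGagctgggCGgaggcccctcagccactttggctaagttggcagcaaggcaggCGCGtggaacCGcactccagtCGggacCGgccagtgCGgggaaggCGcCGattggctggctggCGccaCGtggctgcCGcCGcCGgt
Hoxb1: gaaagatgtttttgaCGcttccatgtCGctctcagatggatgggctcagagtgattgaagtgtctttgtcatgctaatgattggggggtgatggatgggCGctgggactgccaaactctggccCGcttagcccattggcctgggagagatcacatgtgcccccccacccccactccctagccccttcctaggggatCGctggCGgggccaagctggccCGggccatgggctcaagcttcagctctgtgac
Hoxd13 (chr2:74667975-74668224) held 31 CG dinucleotides, a number that 5.19% of all 32851 such windows reach, and Hoxd1 (chr2:74762730-74762979) held 24, reached by 11.98%. Hoxd9 (chr2:74697513-74697762) held 13, reached by 31.54%. Hoxd8 (chr2:74704365-74704614) held 6 and the unread Hoxb1 (chr11:96365508-96365757) 7, close to the median of 6 over all windows. CG content therefore ranged widely among genes that were read more. RefSeq gave 24 windows for 22 of the 39 genes, with a median of 12.5 CG and a range of 2 to 35. The letters TATAAA, on either strand, occurred in 4 of the 24 windows and in 12.4% of all windows. TGATNNAT, the core of the site that Hox and Pbx proteins can bind together, occurred in 4 of the 24 and in 7.68% of all windows, counted on either strand. Matches of these motifs can share bases, and a match is only a match of letters.

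Hox expression as a whole was low and was higher in the KO-labelled libraries. The 39 genes summed to 62.6, 69.3 and 67.1 CPM in the control libraries and to 92.8, 91.0 and 92.6 CPM in those labelled Rif1-KO, so the groups did not overlap. The ratio of counts was 1.39 (exact 95% interval 1.31 to 1.48). Such intervals cover counting error alone, over counts pooled within each group, and leave out the spread between libraries. Without molecular identifiers a read is also not an independent molecule, so they may be too narrow. In a bulk sample, more cells with Hox RNA and more RNA per cell cannot be told apart. A pair of posterior Hoxc genes, Hoxc12 and Hoxc13, held 58.8% of all Hox counts in control and 53.0% in the KO-labelled libraries. Without them the sums were 27.4 ± 3.36 and 43.3 ± 1.23 CPM (SD, n = 3), a ratio of 1.59 (1.45 to 1.74).

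**Figure D1:**
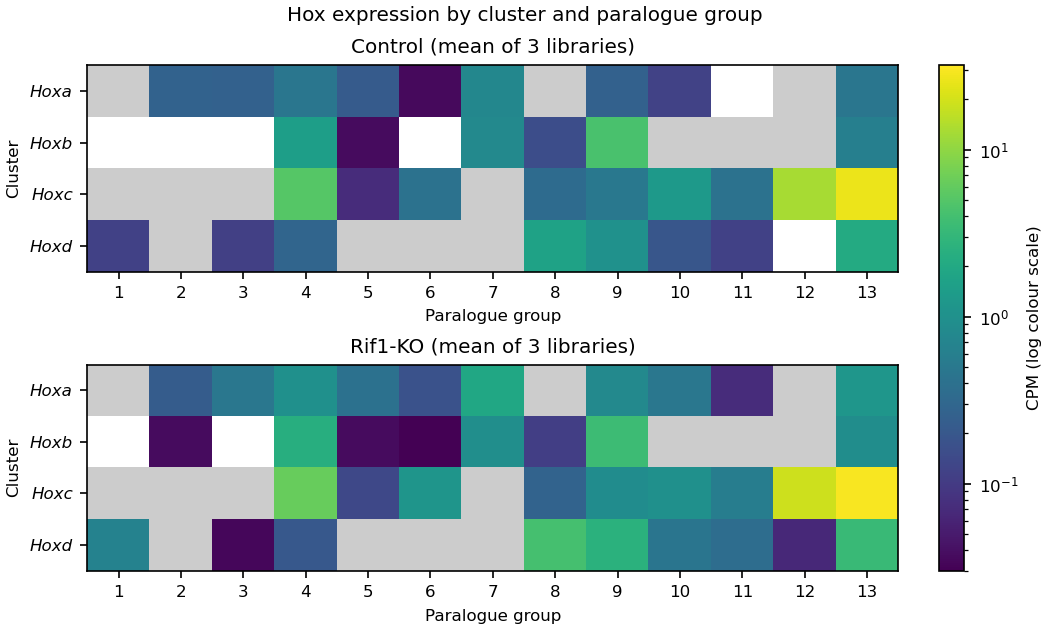
Mean CPM of 38 of the 39 Hox genes (log colour scale) by cluster (rows) and paralogue group (columns) in the control libraries (top) and the KO-labelled libraries (bottom), n = 3 each. Grey marks positions without a gene or not shown, and white a mean of 0. Hoxc12 and Hoxc13 are the brightest cells in both panels, and the white cells number 6 in control and 2 in the KO-labelled libraries.

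Not every member was read. Hoxb1 and Hoxb3 had no count in any of the 6 libraries, 2 of 39 members where 29.2% of all symbols had none. Hoxa11, Hoxb2, Hoxb6 and Hoxd12 had none in control and 2, 1, 1 and 2 counts over the KO-labelled libraries, which is under the 3 counts that a count of 0 allows. That limit is 0.113 CPM over the control group and 0.0996 CPM over the other, so these 6 genes were not detectable as changed at this depth. Unread members thus sat mainly in Hoxb, with 4 of its 10 genes lacking a control count, against 1 of 11 in Hoxa, 0 of 9 in Hoxc and 1 of 9 in Hoxd. A total of 11 members had under 10 counts over all libraries, 6 of them in Hoxb. Both counts for Hoxa11 fell in replicate 3 of the KO-labelled libraries, where its antisense partner Hoxa11as also had 2, and with an unstated strand setting the pair cannot be told apart.

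Across all members the direction leaned upward. Of 37 Hox genes with a count, 29 had a higher mean CPM in the KO-labelled libraries and 8 a lower one, where 53.1% of all 24017 symbols with a count had a higher mean. Every KO-labelled library lay above every control library at 15 of the 37, against 20.9% of all symbols with a count, and below at 1 (Hoxb9), against 18.2%. Over the 28 members with at least 10 counts, the median ratio of counts was 1.76, and over all 18250 symbols with as many it was 1.02.

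The test across all genes kept 11 Hox genes, which needed at least 1.09 CPM in 3 or more libraries. At an adjusted p under 0.05 (edgeR, Benjamini-Hochberg over 14250 genes), 8 of the 11 rose, none fell and 3 did not pass. Of all tested genes, 26.1% rose and 24.8% fell. No Hox gene was lower at an unadjusted p under 0.05 either, and DESeq2 and limma-voom also called 0 lower. Of the 11, 8 met the limit in all 3 control libraries, and 6 of those rose. Hoxa7 and Hoxd9 entered the test only through their counts in the KO-labelled libraries, so they could only be seen as higher. The number that rose was 5 with DESeq2, 5 without control replicate 1 and 5 without Rif1-KO replicate 3, each time without Hoxb4, Hoxc13 and Hoxd13. When all read genes were fitted without a filter, 10 of 37 Hox genes rose, beside 16.7% of all genes fitted. Hoxa9, Hoxa13, Hoxc6 and Hoxd1 were added and Hoxb4 and Hoxc13 lost.

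**Figure D2:**
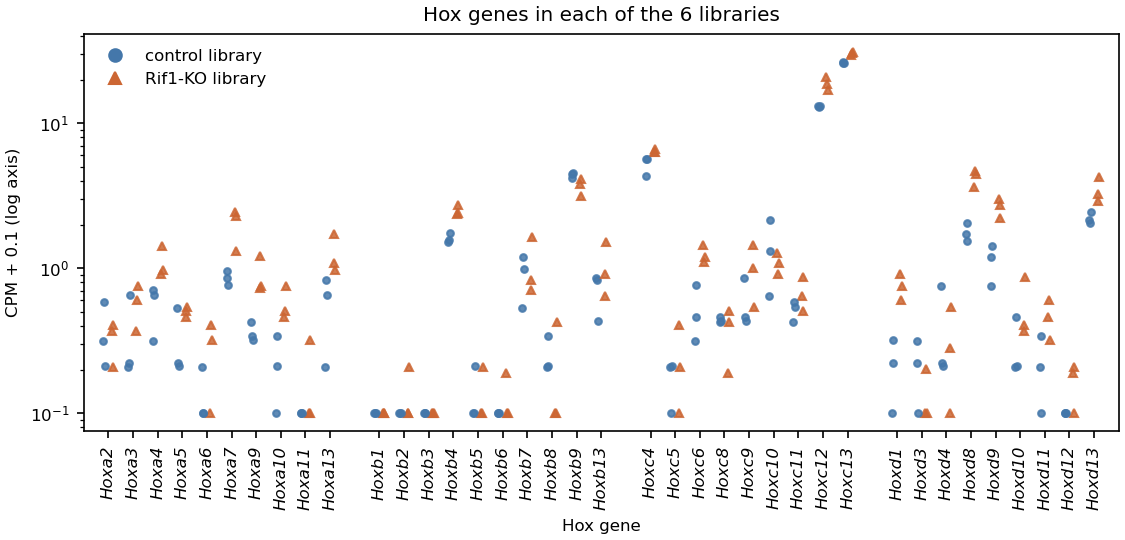
CPM plus 0.1 (log axis) of 38 Hox genes in the 3 control libraries (circles) and the 3 KO-labelled libraries (triangles), by cluster. Points on the lowest line are libraries without a count. The triangles of Hoxd8 and Hoxd9 all lie above the circles, and those of Hoxb9 lie below.

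The ratios of the 4 clusters were spread widely, and the differences between clusters were not tested. Hoxd summed to 5.41, 5.95 and 5.53 CPM in control and to 11.3, 10.9 and 13.3 CPM in the KO-labelled libraries, a ratio of counts of 2.10 (1.73 to 2.56). Hoxa went from 4.97, 7.17 and 6.53 to 13.5, 13.03 and 12.6 CPM, a ratio of 2.11 (1.75 to 2.55). In both clusters the groups' libraries did not overlap. Hoxc, the cluster with most of the counts, had 45.4, 48.2 and 47.6 CPM in control and 60.7, 59.0 and 57.9 CPM in the KO-labelled libraries, a ratio of 1.26 (1.17 to 1.36). Hoxb had 6.81, 7.90 and 7.52 against 7.32, 8.08 and 8.86 CPM, a ratio of 1.09 (0.897 to 1.32), and was the only cluster whose libraries overlapped. Hoxb9 alone held 114 of the 196 control counts of that cluster. The other 9 Hoxb genes went from 3.11 ± 0.410 to 4.48 ± 1.16 CPM (SD, n = 3), a ratio of 1.43 (1.077 to 1.90), a split made after the values were seen. As a share of all Hox counts, Hoxa held 7.94 to 10.4% in the control libraries and 13.6 to 14.5% in the others, and Hoxd 8.24 to 8.64% and 11.99 to 14.4%. The share of Hoxc ran from 69.6 to 72.5% in control and from 62.5 to 65.4% in the KO-labelled libraries, and that of Hoxb from 10.9 to 11.4% and from 7.89 to 9.56%. Sums over chosen members carry no test here.

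**Figure D3:**
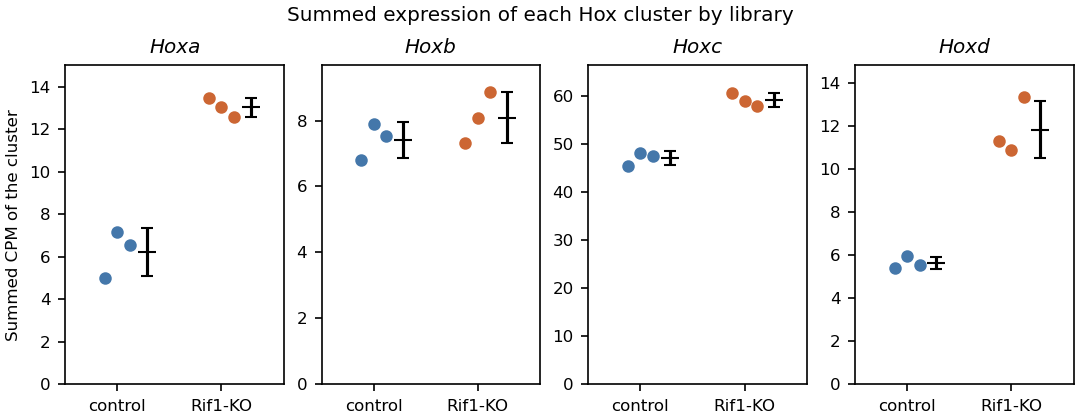
Summed CPM of the genes of each cluster (vertical axes from 0, each panel on its own scale) in single libraries (points), with mean and SD (bars, n = 3). Control and Rif1-KO points are apart in Hoxa, Hoxc and Hoxd, and in Hoxb they overlap at 6.81 to 7.90 and 7.32 to 8.86 CPM.

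Along the clusters, the middle stretch had the highest ratio, and the differences between stretches were not tested. The intervals cover counting error only, and that of the middle stretch overlapped that of the anterior stretch. Groups 5 to 8 had 4.11, 4.98 and 4.42 CPM in control and 8.50, 8.79 and 10.7 CPM in the KO-labelled libraries (ratio 2.07, 1.66 to 2.58). Groups 1 to 4 had 9.73, 12.4 and 12.4 against 18.3, 17.8 and 17.1 CPM (1.55, 1.34 to 1.79). Groups 9 to 13 had 48.8, 51.9 and 50.3 against 66.1, 64.4 and 64.9 CPM (1.30, 1.21 to 1.39). All 3 stretches were therefore higher, without overlap between libraries. The order rests partly on a few abundant genes. Without Hoxc4 the ratio of groups 1 to 4 was 1.79 (1.48 to 2.16), and without Hoxd8 that of groups 5 to 8 was 1.82, close to it. Without Hoxc12 and Hoxc13 that of groups 9 to 13 was 1.44 (1.24 to 1.67). Counting each member with at least 10 counts equally, the median ratio was 1.67 over 8 genes of groups 1 to 4, 2.12 over 6 of groups 5 to 8 and 1.74 over 14 of groups 9 to 13, so the 3 stretches lay closer together. In group 9, Hoxa9, Hoxc9 and Hoxd9 had ratios of 3.02 (1.26 to 8.30), 1.90 (0.951 to 3.99) and 2.51 (1.602 to 4.05), whereas that of Hoxb9 was 0.842 (0.642 to 1.10). In groups 6, 7, 11, 12 and 13 every member had a higher mean, where 53.1% of all symbols with a count did. These are small groups named after their values were seen. For Hoxb6, Hoxa11 and Hoxd12 the higher mean rests on 1 or 2 counts. In group 13 the 4 genes had ratios from 1.16 (Hoxc13) to 2.57 (Hoxa13).

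**Figure D4:**
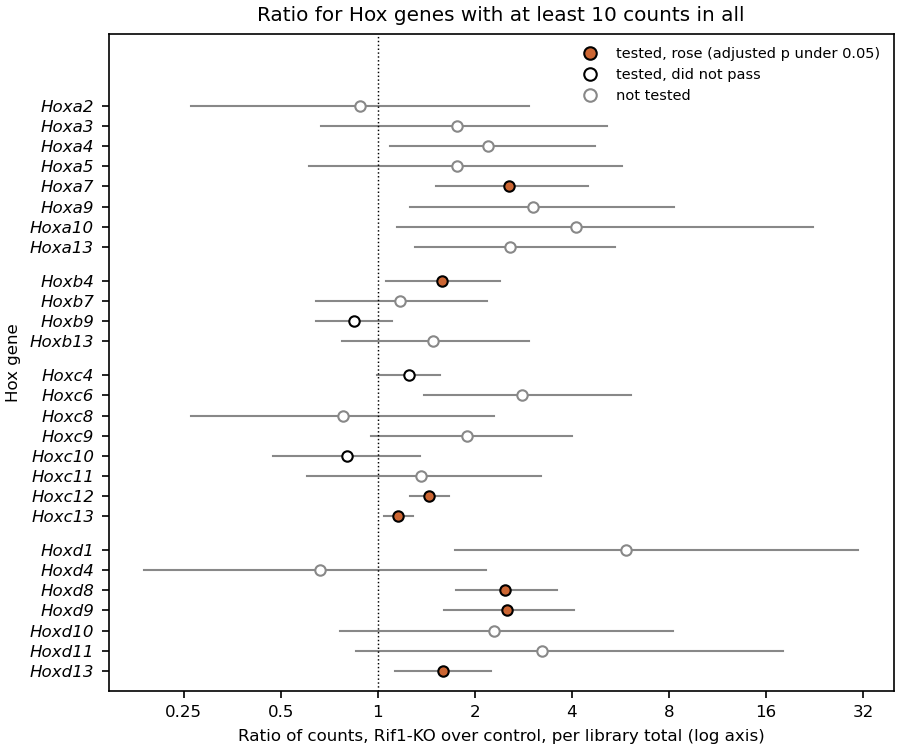
Ratio of counts, KO-labelled libraries over control (log axis), for 27 of the 28 Hox genes with at least 10 counts, with exact 95% intervals that cover counting error only (lines). Filled points are the 7 genes shown that rose. Ratios run from 0.661 for Hoxd4 to 5.87 for Hoxd1, and the intervals narrow with the counts, to 1.05 to 1.28 for Hoxc13.

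In Hoxd, 3 of 3 tested genes rose, where 26.1% of all tested genes rose. Of these, Hoxd9 entered the test only through the KO-labelled libraries, so it could only be seen as higher. The neighbours Hoxd8 and Hoxd9 had nearly the same log2 fold change. Hoxd8, a gene of the trunk, stood at 1.62, 1.94 and 1.44 CPM in control and at 3.52, 4.55 and 4.37 CPM in the KO-labelled libraries (log2 fold change 1.31 ± 0.23 (SE), edgeR adjusted p = 9.44e-05). Hoxd9 stood at 0.649, 1.09 and 1.33 against 2.89, 2.12 and 2.62 CPM (1.32 ± 0.30, edgeR adjusted p = 0.00106). For both genes the lowest KO-labelled library was above the highest control library, and both passed under all 15 alternatives. Hoxd13, needed for digits and the genital tubercle, had 2.05, 1.94 and 2.32 CPM in control and 3.16, 2.83 and 4.16 CPM in the other group (0.67 ± 0.23, edgeR adjusted p = 0.0223). The call on Hoxd13 was lost with DESeq2 (log2 fold change 0.67, adjusted p = 0.162), and by edgeR without control replicate 1 (0.64, adjusted p = 0.0552), control replicate 2 (0.62, 0.0642) or Rif1-KO replicate 3 (0.50, 0.11), and over the 15 alternatives adjusted p ran from 0.0177 to 0.162.

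At the other end of Hoxd, Hoxd1, which acts in pain-sensing neurons, had 0, 1 and 2 counts in the control libraries and 9, 5 and 6 in those labelled Rif1-KO. Its levels were 0, 0.122 and 0.221 against 0.813, 0.505 and 0.656 CPM, a ratio of counts of 5.87 (1.74 to 30.9). It was too low for the filter. Fitted without one it passed (log2 fold change 2.42, edgeR adjusted p = 0.00804), but a gene at so few control counts has a fold that depends on the prior count. Hoxd10 (5 and 13 counts per group) and Hoxd11 (3 and 11) had intervals that span 1. Hoxd3 (3 and 1) and Hoxd4 (8 and 6) had fewer counts in the KO-labelled libraries. Transcripts of Hoxd3 and Hoxd4 share 60.2% and 46.8% of their 50-base stretches with each other or with the overlapping gene model Gm28230 (GENCODE, GRCm38), so their counts are uncertain.

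In Hoxa, Hoxa7 was among the tested genes and rose, where 26.1% of all tested genes rose. It entered the test only through the KO-labelled libraries, so it could only be seen as higher. Of the 9 untested genes, 8 had a higher mean in the KO-labelled libraries, where 53.1% of all symbols with a count did. Hoxa7, a trunk gene, had 0.757, 0.850 and 0.664 CPM in control and 2.35, 1.21 and 2.19 CPM in the KO-labelled libraries (log2 fold change 1.34 ± 0.35 (SE), edgeR adjusted p = 0.00348). Its transcripts overlap the antisense gene Hoxaas3, listed as 2700086A05Rik, which had 13 and 16 counts per group.

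Below the filter, Hoxa4 had 0.216, 0.607 and 0.553 CPM in control and 0.813, 1.31 and 0.875 CPM in the KO-labelled libraries, and Hoxa13, a gene of the distal limb, 0.108, 0.729 and 0.553 against 0.994, 1.62 and 0.875 CPM. Neither overlapped between groups. Hoxa9, known from blood progenitors, had 7 and 24 counts per group and a ratio of 3.02 (1.26 to 8.30), and Hoxa10, a gene of the uterus and limb, 3 and 14 counts and a ratio of 4.11 (1.15 to 22.3). All 3 KO-labelled libraries were above control for both. Without a filter, Hoxa9 (edgeR adjusted p = 0.0358) and Hoxa13 (0.0187) passed, and Hoxa4 (0.0741) and Hoxa10 (0.0807) did not. Hoxa2 (7 and 7 counts), Hoxa3 (7 and 14), Hoxa5 (6 and 12) and Hoxa6 (1 and 5) had intervals that span 1.

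Hoxc held the most abundant members, and 2 of its 4 tested genes rose, where 26.1% of all tested genes rose. Hoxc13, which drives keratin genes of hair and nail, had 25.8, 26.2 and 25.9 CPM in control and 29.4, 30.2 and 31.0 CPM in the KO-labelled libraries (log2 fold change 0.21 ± 0.08 (SE), edgeR adjusted p = 0.0230). Its neighbour Hoxc12 had 13.1, 12.8 and 13.1 against 20.6, 18.4 and 16.95 CPM (0.53 ± 0.11, edgeR adjusted p = 0.000302) and passed under all 15 alternatives. Neither gene overlapped between groups. Per kilobase of exon (GENCODE lengths on GRCm38), Hoxc12 at 12.6 CPM was above Hoxc13 at 10.6 CPM in control, and Hoxc4 stood at 1.99 and Hoxb9 at 1.67. In the KO-labelled libraries the levels per kilobase were 18.1 for Hoxc12 and 12.3 for Hoxc13, with 2.47 for Hoxc4 and 1.51 for Hoxd8. The call on Hoxc13 was lost with DESeq2 (log2 fold change 0.20, adjusted p = 0.179), and by edgeR without a filter (0.21, adjusted p = 0.0522) and without control replicate 1 (0.21, 0.0541), control replicate 3 (0.21, 0.0629), or, of the KO-labelled libraries, replicate 2 (0.21, 0.059) or 3 (0.19, 0.0612). Over the 15 alternatives its adjusted p ran from 0.00275 to 0.179.

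Hoxc4, the most anterior gene of this cluster, had 4.22, 5.59 and 5.53 CPM in control and 6.24, 6.57 and 6.23 CPM in the KO-labelled libraries. The groups did not overlap, but the gene did not pass (log2 fold change 0.32 ± 0.16 (SE), edgeR adjusted p = 0.109). With an offset for GC content and length it did (0.40, edgeR adjusted p = 0.0448, with a range of 0.0448 to 0.401 over the 15 alternatives). Hoxc6 lay just under the filter's limit, with 0.216, 0.365 and 0.664 CPM against 1.36, 1.01 and 1.09 CPM and no overlap. Fitted without a filter it passed (log2 fold change 1.45, edgeR adjusted p = 0.0109). Hoxc10, a gene of the lumbar region, was uneven in control, at 0.541, 2.07 and 1.22 CPM, against 1.17, 0.808 and 0.984 CPM (−0.32 ± 0.40, edgeR adjusted p = 0.533). Without control replicate 2 its log2 fold change turned to 0.18. Hoxc5 (2 and 4 counts per group), Hoxc8 (9 and 8), Hoxc9 (13 and 28) and Hoxc11 (11 and 17) had intervals that span 1.

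In Hoxb, 1 of 2 tested genes rose, beside the 26.1% of all tested genes. Hoxb4, known for the expansion of blood stem cells, had 1.41, 1.46 and 1.66 CPM in control and 2.26, 2.63 and 2.30 CPM in the KO-labelled libraries (log2 fold change 0.66 ± 0.26 (SE), edgeR adjusted p = 0.0370). The groups did not overlap, but the call held under only 7 of 15 alternatives, with adjusted p from 0.0196 to 0.257. It was lost with DESeq2 (0.66, adjusted p = 0.257) and by edgeR without a filter (0.66, adjusted p = 0.0661). It was also lost when any 1 library was left out, with adjusted p of 0.101, 0.0795 and 0.0537 without control replicates 1, 2 and 3 and of 0.0605, 0.108 and 0.0565 without Rif1-KO replicates 1, 2 and 3, and log2 fold changes from 0.59 to 0.74. Hoxb9, a gene of the thoracic region, had 4.11, 4.37 and 4.42 CPM in control and 3.71, 4.04 and 3.06 CPM in the KO-labelled libraries. It was the only Hox gene with every KO-labelled library below control, and it did not pass (−0.25 ± 0.19, edgeR adjusted p = 0.281). Hoxb7 (21 and 28 counts per group) and Hoxb13 (16 and 27) overlapped between groups, and Hoxb5 and Hoxb8 had 1 and 1 and 4 and 3 counts.

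The genes and RNAs at the edges of the clusters were read next, from a list of 24, of which 22 were found. The test took 9 of them: 5 rose, 2 fell and 2 missed the threshold, against 50.9% of all tested genes called in either direction. Lnp, now Lnpk and lying past Hoxd13, rose by 0.46 on the log2 scale, from 48.2 ± 0.506 to 66.1 ± 2.75 CPM (SD, n = 3; edgeR adjusted p = 2.62e-06). Hibadh, beyond Hoxa13, and Calcoco1, beyond Hoxc13, rose by 0.29 and 0.33 on the log2 scale (edgeR adjusted p = 3e-04 and 0.00213). Atp5g1, beyond Hoxb13 and a subunit gene of the mitochondrial ATP synthase, fell by 0.77 (edgeR adjusted p = 3.08e-08). Evx1 and Evx2, homeobox genes that cap Hoxa and Hoxd, had no count in any library. Hotairm1 and Halr1, noncoding RNA genes of the Hoxa locus listed as Gm15051 and Gm15055, had 2.00 ± 0.247 against 2.81 ± 0.370 CPM (SD, n = 3; edgeR adjusted p = 0.0883) and, under the filter, 15 against 46 counts per group.

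Hox proteins gain specificity by pairing with TALE homeodomain proteins. Of 11 TALE genes, all tested, 3 rose, 1 fell and 7 did not pass, where 26.1% of all tested genes rose and 24.8% fell. Meis1 had 1.73, 2.19 and 2.10 CPM in control and 6.69, 5.66 and 6.9995 CPM in the KO-labelled libraries (log2 fold change 1.68 ± 0.20 (SE), edgeR adjusted p = 7.4e-07), and Meis2 1.51, 1.94 and 1.99 against 4.34, 5.05 and 6.9995 CPM (1.57 ± 0.24, edgeR adjusted p = 1.69e-05). These cofactors rose more than 2-fold without overlap, while Pknox1 rose by 0.19 and Tgif1, a TALE repressor, fell by 0.29 on the log2 scale (edgeR adjusted p = 0.0237 and 4.52e-05). None of the Pbx genes passed. Among 6 Cdx and ParaHox genes, sisters of the Hox clusters, 2 were tested and both rose. Gsx2, a gene of the ventral forebrain, went from 3.21 ± 0.349 to 11.005 ± 0.380 CPM, up 1.77 on the log2 scale (SD, n = 3; edgeR adjusted p = 1.09e-08). Cdx1, a known activator of Hox genes, had 0.865, 0.122 and 0.553 CPM in control and 1.99, 2.93 and 2.62 CPM in the KO-labelled libraries (2.21, edgeR adjusted p = 8.17e-05), and entered the test only through the latter. Cdx2 had no count, and Cdx4 had 0 and 4 counts per group.

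Genes for regulators of the clusters were read against the same shares of all tested genes, 26.1% that rose and 24.8% that fell. Retinoic acid is known to open Hox clusters from their anterior end, and of 19 genes of its pathway 13 were tested, with 4 that rose, 4 that fell and 5 that did not pass, near those shares. Stra8, a retinoic acid target in germ cells, had 6.18 ± 0.173 CPM in control and 2.40 ± 0.484 CPM otherwise, and fell (SD, n = 3; −1.35 on the log2 scale, edgeR adjusted p = 7.05e-06), the receptor gene Rara fell by 0.40 and the binding protein gene Crabp2 by 1.05 on the log2 scale, and Aldh1a2, whose enzyme makes retinoic acid, rose by 1.04. Of 11 trithorax genes, whose products keep Hox genes active, 1 rose (Mll1, now Kmt2a, named after its value was seen), 6 fell and 4 did not pass. Dpy30 fell from 156 ± 8.59 to 101 ± 9.09 CPM (log2 fold change −0.63, edgeR adjusted p = 4.3e-08), Wdr5 by 0.40, Wbp7 (now Kmt2b) by 0.36 and Ash2l by 0.35. Of 25 Polycomb genes, 7 rose, 6 fell and 12 did not pass, which is also near the shares of all tested genes. Mtf2, an accessory subunit of Polycomb repressive complex 2, rose from 546 ± 8.53 to 745 ± 8.72 CPM (0.45, edgeR adjusted p = 5.42e-08), and Ezh1 rose by 0.31. Pcgf2 fell by 0.44 and Phf19 by 0.71. The catalytic subunit gene Ezh2 fell by 0.15 (edgeR adjusted p = 0.0117), named after its value was seen. The median log2 fold change was −0.17 over the retinoic acid genes tested, −0.21 over the trithorax genes and 0.08 over the Polycomb genes, beside 0.0035 over all tested genes.

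Markers of cell types that normally express Hox genes were low. Those of the caudal epiblast, 8 genes, summed to 7.24 to 8.63 CPM in control and 7.59 to 8.42 CPM in the KO-labelled libraries. Of 4 tested, Cdx1 rose, Nkx1-2 fell (log2 fold change −1.89, edgeR adjusted p = 0.000235) and 2 did not pass, and Cdx2 had no count. Nkx1-2 entered the test only through control, so it could only be seen as lower. Cdx1 entered only through the KO-labelled libraries, so it could only be seen as higher. These and the following calls stand beside 26.1% of all tested genes that rose and 24.8% that fell. The 7 neural progenitor markers found summed to 2.19 to 3.14 and 4.44 to 6.56 CPM, with Neurog2 and Hes5 at 0. Pax7 did not pass. The 8 mesoderm markers summed to 17.04 to 20.2 and 16.3 to 19.9 CPM, with Meox1 at 0, Gata4 that rose by 0.37 and Tcf15 that fell by 0.58. The 8 fibroblast markers summed to 12.4 to 20.3 and 11.6 to 12.2 CPM, with Lum at 0, Pdgfra that rose by 0.94 and Thy1 that fell by 0.99. Among pluripotent stem cell markers, Sox2 fell by 0.54, and Tcfcp2l1, Klf4 and Nanog rose by 0.32, 0.18 and 0.11, with 3 of 7 that did not pass. The part of any of these cells in the Hox counts was not tested.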

How the data were processed

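RNA from 6 libraries of E14 cells was sequenced after an mRNA kit from 200 ng of total RNA, per the labels' protocols. The deposited values are raw counts of reads for each symbol. The authors used STAR, featureCounts 1.6.2 and mm9, according to the submitters' processing notes. Annotation, strand setting and treatment of multiply matching reads are unstated there. Libraries were grouped by their titles. The test was edgeR's quasi-likelihood test (version 4.0.16, R 4.3.3) over all 6 libraries, after filterByExpr and TMM scaling, with group as the only term, Benjamini-Hochberg adjustment over 14250 genes, a threshold of 0.05 and no fold minimum. The fit was tested on simulated data in which 98 genes changed by 1 and 99 by 2 on the log2 scale. It recovered 93.9% and 100% of them, and 8.17% of its calls were false, beside the threshold of 0.05. Far fewer genes changed in the simulation than were called in these data. CPM uses TMM library sizes, and sums over clusters take all members, tested or not. Ratios of counts have exact 95% intervals from the binomial distribution given the total.

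Members with a call or at least 1 CPM in a group get the value of every library. From each other list up to 4 called genes are named by adjusted p, or else the 2 most expressed. The members and lists were chosen with earlier results of these data known. Alternatives were 2 other scalings, DESeq2 1.42.0, limma-voom (limma 3.58.1), 2 other filters, a replicate block, an offset for GC content and length, both together, and leaving out each library. Current names, lengths and shared 50-base stretches came from GENCODE M21 and RefSeq (GRCm38), matched by symbol. Coordinates are given only for the promoter windows, on GRCm38.p6, because the counts use another build. The values of some single genes are not reported here, but sums and counts over members include every member.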

Additional observations from a re-analysis of the deposited data

How the results depend on the processing

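Hoxa7, Hoxc12, Hoxd8 and Hoxd9 rose under all 15 alternatives, and Hoxb4, Hoxc13 and Hoxd13 did not. Most of these fits kept Hoxa7 and Hoxd9 only through the KO-labelled libraries. Without a filter Hoxa7 and Hoxd9 passed (edgeR adjusted p = 0.0011 and 0.000141), and with DESeq2 Hoxa7 was close to the threshold (adjusted p = 0.046). With DESeq2, 5 Hox genes rose in place of 8, and the number ran from 5 to 7 when 1 library was left out, where fewer samples were fitted. None was called lower under any of the 15. The log2 fold change of Hoxc10, which did not pass, ran from −0.70 without control replicate 1 to 0.18 without control replicate 2, where its sign turned. With a replicate block 8 Hox genes rose and all 8 were the same, and 9 rose with the block and the GC and length offset, Hoxc4 being added. Deviations of same-numbered libraries correlated at 0.079, −0.065 and 0.046, so the numbers were not taken as pairs. The ratio of summed counts moved by more than the spread between libraries only when the most counted member was left out. It was then 1.54 for all Hox genes, 1.39 for Hoxc and 1.44 for groups 9 to 13 without Hoxc13, 1.43 for Hoxb without Hoxb9, and 1.79 for groups 1 to 4 without Hoxc4. Depth kept 28 of the 39 genes out of the test. Leave-one-out fits with 2 libraries in a group rest on the spread of all 5.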

Other observations

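Between Hoxb13 and Hoxb9 lies Gm53, a noncoding gene chosen after its values were seen, which was read more than any Hox gene. It had 49.1 ± 5.22 CPM in control and 50.1 ± 1.17 CPM in KO-labelled libraries (SD, n = 3; log2 fold change 0.02 ± 0.07 (SE), edgeR adjusted p = 0.801). The microRNA hairpin gene Mir196a-1 in the same interval, chosen likewise, had 3.36 ± 0.314 and 3.61 ± 0.648 CPM (edgeR adjusted p = 0.65). An mRNA library does not measure the mature microRNA, so these are counts on the hairpin's locus. Of the other 5 hairpin genes in the Hox clusters, 4 had no count and Mir196a-2 had 1.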
